A study of Rattus norvegicus with 24 samples.

Results

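Transcript ratios of 3 growth signalling genes of blood vessels and 1 growth factor binding protein were followed across salt diets and strains in rat kidney: Vegfa, Pdgfa, Kdr and Igfbp5. They were chosen by gene symbol in the platform annotation, with earlier results of these data known. Each gene is listed at 2 probe IDs there and holds values at 1 of them, which makes 4 probes of the 1561 with a value on at least 1 array. The study, whose title concerns renal medullary genes in salt-sensitive hypertension, hybridised 24 2-colour cDNA arrays, each with a pair of total RNAs labelled only as kidney. From prior knowledge of the study, HS stands for a high-salt diet and LS for a low-salt one. SS is the salt-sensitive rat, and strain 13 has the SS genome with its chromosome 13 replaced by that of a different strain, so both strains share the SS background elsewhere.

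The 4 comparisons set strain 13 on HS against strain 13 on LS, SS on HS against SS on LS, strain 13 against SS with both on HS, and strain 13 against SS with both on LS. All are labelled 2 weeks. Each comparison had 3 replicates, and each replicate a forward and a dye-swap array. The labels do not give age, sex, any pooling of animals or whether replicates were separate animals. The spread behind each p-value is thus that of these samples, and may be technical in origin. An array held 726 to 1402 measured probes (median 1202.5), and the number of arrays limits the precision. Values are the deposited log ratios, whose base is not given in the sources used here, so no fold changes are stated. A ratio carries no level for either RNA, which means that the labelled tissue could not be checked by the absence of markers.

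Values above 0 are read as higher on HS, or higher in strain 13. This direction is likely and not settled: 13 titles name the RNA of each dye, which with the dye labelled for each channel puts HS or strain 13 in channel 1 on all of these arrays, but only 1 of them belongs to the 12 diet arrays. The strain difference in diet change, estimated from diet arrays and from strain arrays, correlated at 0.77 over the 548 probes on all arrays. This ties the direction of the diet arrays to that of the strain arrays. If the direction were wrong, all signs would thus be expected to turn together. Among the 6 arrays of the SS diet comparison, 5 titles give no strain, and the remaining title (dye-swap array of replicate 3) begins as the strain 13 titles do, although SS is named for both of its channels. In the strain 13 diet comparison, 1 title (a forward array) carries no replicate number and was taken as replicate 1.

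Vegfa encodes vascular endothelial growth factor A, a secreted ligand made in the kidney by podocytes and tubular epithelium. Kdr encodes its main signalling receptor on endothelial cells, a tyrosine kinase also called VEGFR2, through which the ligand drives endothelial survival, permeability and capillary growth. Pdgfa encodes the A chain of platelet-derived growth factor, a ligand for receptors on interstitial and other mesenchymal cells. Igfbp5 encodes a secreted protein that binds insulin-like growth factors and extracellular matrix. In the medulla, the vasa recta capillaries run beside the tubules, so that ligand made by epithelium can reach receptors on nearby endothelium.

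On the RefSeq assembly GRCr8, none of the 4 genes lies on chromosome 13, the chromosome replaced in strain 13. Vegfa spans chr9:22452854-22468194 with 14 annotated transcripts, and Igfbp5 lies on the minus strand of the same chromosome at chr9:81901605-81914187 with 1 transcript. Kdr spans chr14:32572031-32615204 with 2 transcripts, and Pdgfa spans chr12:20759366-20780337 with 3. Where the cDNA probes lie within these transcripts is not given in the sources used here, so splice forms of Vegfa could not be separated.

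The bases before each annotated start are shown because 3 of the 4 genes moved in the same direction in 1 comparison, which makes a comparison of the promoters possible. Capitals mark GGGCGG or its reverse complement CCGCCC, the core letters bound by SP1-type factors. The windows are chr9:22452604-22452853 for Vegfa, chr14:32571813-32572030 for Kdr and chr12:20759116-20759365 for Pdgfa, all on the plus strand, and chr9:81914188-81914437 on the minus strand for Igfbp5 (RefSeq, GRCr8).
Vegfa: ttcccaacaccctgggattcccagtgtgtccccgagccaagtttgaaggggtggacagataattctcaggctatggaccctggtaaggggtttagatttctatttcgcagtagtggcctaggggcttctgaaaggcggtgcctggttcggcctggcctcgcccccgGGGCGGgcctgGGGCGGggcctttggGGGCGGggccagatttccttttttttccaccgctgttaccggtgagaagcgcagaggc
Kdr: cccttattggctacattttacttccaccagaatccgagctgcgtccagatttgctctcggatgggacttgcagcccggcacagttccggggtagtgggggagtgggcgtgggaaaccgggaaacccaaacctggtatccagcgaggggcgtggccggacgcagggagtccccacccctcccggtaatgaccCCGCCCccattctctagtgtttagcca
Pdgfa: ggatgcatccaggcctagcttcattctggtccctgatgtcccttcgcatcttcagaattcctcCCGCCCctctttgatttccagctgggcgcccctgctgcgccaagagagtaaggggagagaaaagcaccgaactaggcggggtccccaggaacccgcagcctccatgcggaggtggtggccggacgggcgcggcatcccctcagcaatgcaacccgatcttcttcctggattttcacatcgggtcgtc
Igfbp5: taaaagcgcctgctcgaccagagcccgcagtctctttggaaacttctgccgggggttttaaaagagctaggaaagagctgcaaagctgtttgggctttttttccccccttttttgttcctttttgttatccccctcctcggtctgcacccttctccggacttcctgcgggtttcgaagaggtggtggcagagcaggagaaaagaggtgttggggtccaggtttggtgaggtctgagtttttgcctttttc

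The Vegfa window held 3 such matches, with first bases at positions -84, -73 and -58 from the annotated start. Kdr had 1 match, at position -27, and Pdgfa 1, at position -187. Igfbp5 had 0. The same search covered the 250 bases before the start in 33469 annotated promoter windows. Of these, 30.5% held at least 1 match on either strand and 7.41% held 3 or more. Both core forms bound by hypoxia-inducible factors were also searched on both strands. The form GCGTG was in Kdr at positions -113 and -71, had 0 matches in the other 3 windows and was in 25.9% of all windows. The form ACGTG had 0 matches in the 4 windows and was in 16.6% of all windows. The box TATAAA was in 0 of the 4 and in 12.9% of all windows. A match describes letters only, and the arrays carry no measure of binding.

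The orientation of the dyes separated the 4 genes before any condition did. Vegfa was below 0 on 12 of 12 forward arrays and above 0 on 9 of 11 dye-swap arrays with a value, so that the arrays of a pair had the same sign in only 2 of 11 pairs. Igfbp5 was below 0 on 8 of 11 forward arrays and above 0 on 11 of 12 dye-swap arrays, with the same sign in 4 of 11 pairs. Pdgfa had the same sign in 10 of 12 pairs and Kdr in 6 of 11, a value of exactly 0 counting as neither sign. Over all probes, 47.0% of 12651 pairs had the same sign.

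**Figure D1:**
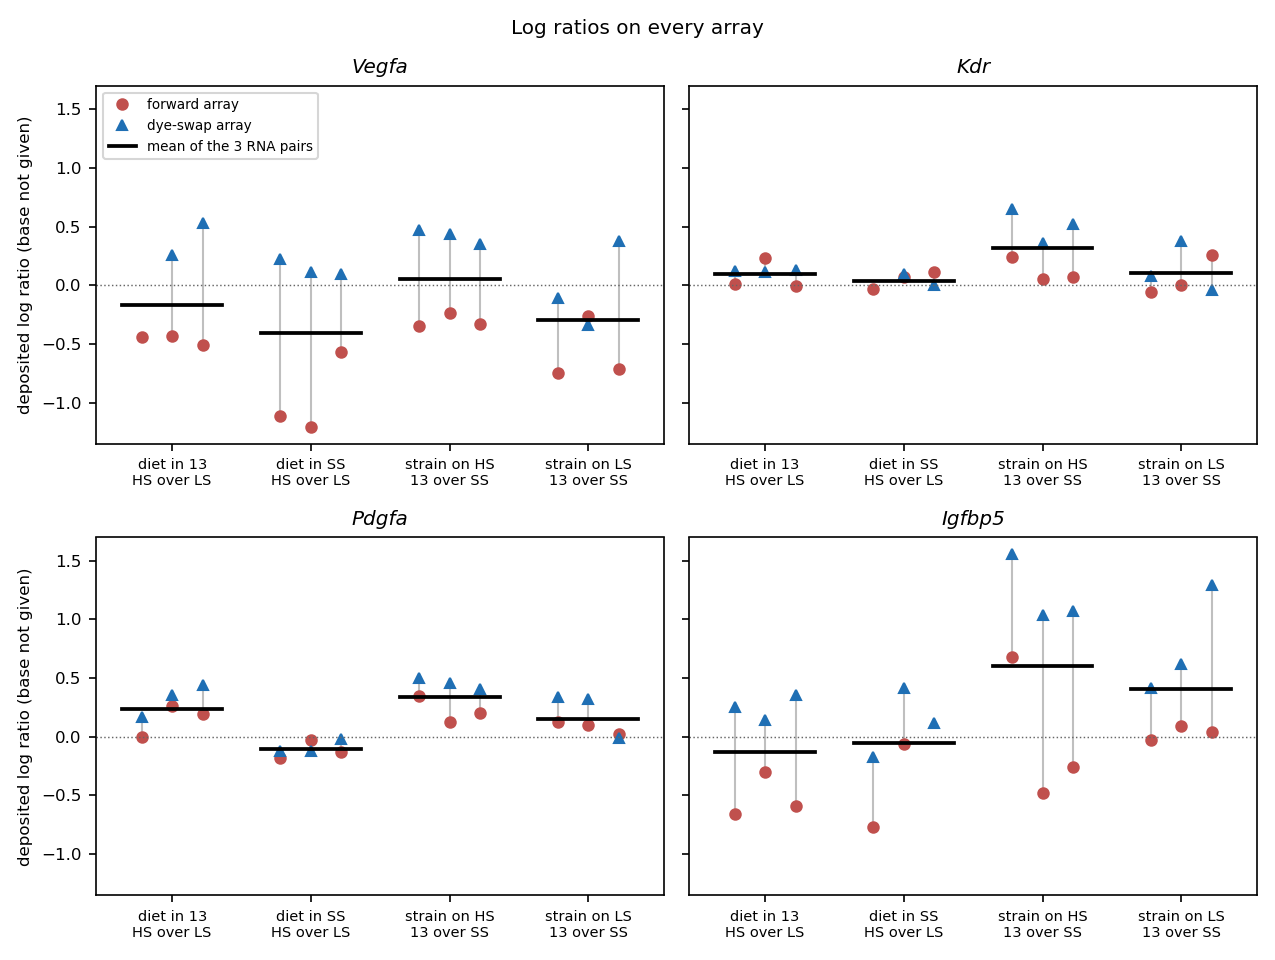
Deposited log ratio (base not given, vertical axis) of each gene on every array, by comparison and replicate. Circles are forward arrays, triangles dye-swap arrays of the same RNA pair, grey lines join the pair and black bars are means of the 3 pairs; the circles of Vegfa lie below 0 on all 12 forward arrays, while those of Pdgfa lie near their triangles.

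The dye effect, taken as (forward minus dye-swap) divided by 2 and averaged over RNA pairs, was -0.40 for Vegfa (SE 0.051) and below 0 in 10 of 11 pairs (limma adjusted p = 2.05e-06). For Igfbp5 it was -0.42 (SE 0.050), below 0 in 11 of 11 pairs (limma adjusted p = 1.13e-06). Of 1118 probes tested, 479 passed (42.8%), with a median size of 0.095. Igfbp5 ranked 14 and Vegfa 17 by size, larger than 98.7% and 98.5% of the probes. Kdr and Pdgfa had a dye effect of -0.07 each (limma adjusted p = 0.204 and 0.0880), below 0 in 8 of 11 and 10 of 12 pairs. The mean of a forward and a dye-swap array cancels such an effect, and a pair with a value on only 1 array keeps it; these are replicate 1 of the strain 13 diet comparison for Vegfa, replicate 3 of the SS diet comparison for Igfbp5 and replicate 1 of the SS diet comparison for Kdr.

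**Figure D2:**
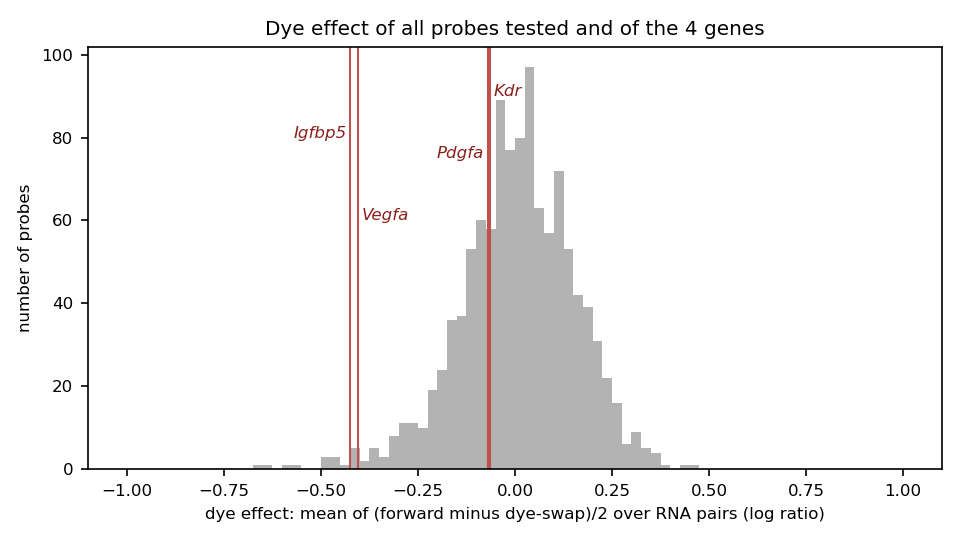
Number of probes (vertical axis) by dye effect, the mean of (forward minus dye-swap) divided by 2 over RNA pairs, as a log ratio (horizontal axis); red lines mark the 4 genes. Vegfa at -0.40 and Igfbp5 at -0.42 stand in the lower tail of the 1118 probes, and Kdr and Pdgfa at -0.07 stand near its centre.

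Of the 16 combinations of gene and comparison, 4 passed limma's test at an adjusted p below 0.05: Vegfa was lower on HS in SS, and Pdgfa, Kdr and Igfbp5 were higher in strain 13 than in SS on HS. Over all probes, 2.82% of 1310 were called in the SS diet comparison (1.83% higher and 0.992% lower) and 6% of 1350 in the strain comparison on HS (3.63% higher and 2.37% lower). The 4 genes were chosen with earlier results of these data known, so these shares give no test of them. With replicate number as a block, 40 probes were called in the strain comparison on HS, against 81 without it. In the strain 13 diet comparison 0 of 1287 probes passed, with 119 at an unadjusted p below 0.05, and in the strain comparison on LS 0 of 1229, with 268 (0% called in each). A lower ratio of a transcript in whole tissue can come from fewer cells that make it or from less RNA per cell, and these cannot be told apart here. With 3 replicates, an exact sign-flip test of a single gene cannot go below p = 0.25, so the calls rest on the spread that limma estimates from all 12 pairs and all probes.

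Among the ligands, Vegfa fell on HS in SS. Its pair means were -0.445, -0.55 and -0.235 in replicates 1, 2 and 3. All 3 lay below 0, as did 19.5% of probes with 3 values in that comparison, where 22.1% had all 3 above 0. The mean was -0.41 ± 0.16 (SD, n = 3; SE of the fit 0.092; limma adjusted p = 0.0385), and 2.21% of probes had a lower estimate. The forward arrays gave -1.11, -1.21 and -0.57, and the dye-swap arrays 0.22, 0.11 and 0.10. Every array of 1 orientation therefore lay on the other side of 0 from every array of the other orientation, and the half-difference of the orientations, -0.55 ± 0.19 (SD, n = 3), was larger in size than the mean. On forward arrays alone Vegfa averaged -0.96, and on dye-swap arrays alone 0.14, the opposite direction (limma adjusted p = 0.530).

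In strain 13 the Vegfa pair means for HS over LS were -0.44, -0.085 and 0.01. The lowest is the pair with a forward array only, and the other pairs lay near 0. The mean was -0.17 ± 0.24 (SD, n = 3; limma adjusted p = 0.610). A fit to all 24 arrays with a dye term, which takes that missing array into account, gave -0.04 for Vegfa there (limma adjusted p = 0.927).

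Between strains on HS, the pair means of Vegfa were 0.06, 0.1 and 0.01, and on LS they were -0.43, -0.3 and -0.165. The 3 HS values lay just above 0 and the 3 LS values below it, without overlap. The HS minus LS difference from these arrays did not pass (limma adjusted p = 0.451), and the share of all probes without such overlap was not counted. On HS 28.3% of probes with 3 values had all of them above 0, and on LS 17.6% had all of them below 0. Vegfa averaged 0.06 ± 0.05 on HS (SD, n = 3; limma adjusted p = 0.760) and -0.30 ± 0.13 on LS (SD, n = 3; limma adjusted p = 0.116), so neither passed. Without the LS array that holds the fewest values the LS mean was -0.19 (limma adjusted p = 0.248).

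Pdgfa was the ligand whose arrays of opposite dye gave the nearest values. Between strains on HS, its forward arrays gave 0.35, 0.13 and 0.20 and its dye-swap arrays 0.50, 0.46 and 0.41. All 6 lay above 0. The pair means were 0.425, 0.295 and 0.305, with a mean of 0.34 ± 0.07 (SD, n = 3; SE of the fit 0.070; limma adjusted p = 0.0240), above 95.6% of probes. Forward arrays averaged 0.23 and dye-swap arrays 0.46.

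On LS the Pdgfa pair means for strain 13 over SS were 0.235, 0.21 and 0.005. They were positive, as for 26.5% of probes there, with the lowest near 0, and the mean of 0.15 ± 0.13 did not pass (SD, n = 3; limma adjusted p = 0.238). Every HS value was above every LS value, but the HS minus LS difference from these arrays did not pass (limma adjusted p = 0.568). The share of all probes with such a separation was not counted. For diet, Pdgfa had 0.085, 0.31 and 0.315 in strain 13 and -0.15, -0.075 and -0.075 in SS. All 3 pairs lay above 0 in strain 13, as for 15.7% of probes there, and all 3 below 0 in SS, as for 19.5% there. Neither mean passed: 0.24 ± 0.13 in strain 13 and -0.10 ± 0.04 in SS (SD, n = 3 each; limma adjusted p = 0.403 and 0.459).

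Kdr, the receptor, rose in strain 13 relative to SS on HS. Its forward arrays gave 0.24, 0.05 and 0.07 and its dye-swap arrays 0.65, 0.36 and 0.52. All 6 lay above 0, and each dye-swap array was above every forward array. The pair means were 0.445, 0.205 and 0.295, with a mean of 0.315 ± 0.12 (SD, n = 3; SE of the fit 0.066; limma adjusted p = 0.0241), above 94.7% of probes. Kdr averaged 0.12 on the forward and 0.51 on the dye-swap arrays. In this comparison its half-difference of the orientations was -0.195 ± 0.036, against -0.04 ± 0.17 on LS (SD, n = 3 each).

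The other Kdr ratios were small. On LS the pair means for strain 13 over SS were 0.01, 0.19 and 0.11, which lay below the HS values, and the mean was 0.10 ± 0.09 (SD, n = 3; limma adjusted p = 0.361). The HS minus LS difference from these arrays did not pass (limma adjusted p = 0.526). How many of all probes separate by diet in this way was not counted. For diet, Kdr had 0.065, 0.17 and 0.06 in strain 13 and -0.03, 0.085 and 0.055 in SS, where the lowest value is the pair with a forward array only. These sets overlapped, and neither mean passed: 0.10 ± 0.06 in strain 13 and 0.04 ± 0.06 in SS (SD, n = 3 each; limma adjusted p = 0.655 and 0.798).

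Igfbp5 had the highest strain ratio on HS of the 4 genes, and the least even one. Its pair means for strain 13 over SS were 1.12, 0.28 and 0.405. Replicate 1 stood well above the other replicates, and all 3 lay above 0. The mean was 0.60 ± 0.45 (SD, n = 3; SE of the fit 0.159; limma adjusted p = 0.0487), above 99.7% of probes. It was no longer called with replicate number as a block (limma adjusted p = 0.0925) or with arrays centred on the median (0.59; limma adjusted p = 0.0520). The forward arrays gave 0.68, -0.48 and -0.26, with a mean of -0.02, and the dye-swap arrays 1.56, 1.04 and 1.07, with a mean of 1.22. The call of Igfbp5 therefore rested on the dye-swap arrays and on forward replicate 1, and without replicate 1 of every comparison it was 0.34 (limma adjusted p = 0.0972).

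On LS, Igfbp5 had pair means of 0.195, 0.355 and 0.665 for strain 13 over SS, all above 0 and overlapping the HS values. The mean of 0.405 ± 0.24 did not pass (SD, n = 3; limma adjusted p = 0.164), although 98.9% of the probes tested had a lower estimate. On diet, Igfbp5 had -0.205, -0.08 and -0.115 in strain 13 and -0.47, 0.18 and 0.12 in SS, where the last is the pair with a dye-swap array only. All 3 strain 13 values were below 0, as for 15.8% of probes there. The SS values lay on both sides of 0 and around those of strain 13. The means were -0.13 ± 0.06 in strain 13 and -0.06 ± 0.36 in SS (SD, n = 3 each; limma adjusted p = 0.831 and 0.874).

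Whether diet changed the genes differently in the strains was tested directly. The diet arrays give it as the change in strain 13 minus the change in SS, and the strain arrays as the HS ratio minus the LS ratio, and both estimates were averaged in the same fit. None of the 4 genes passed, against 5 of 1164 probes (0.43%; 8 with replicate number as a block), and 182 probes had an unadjusted p below 0.05. Vegfa had 0.30 ± 0.12 (SD over replicates, n = 3; limma adjusted p = 0.147), Pdgfa 0.26 ± 0.07 (limma adjusted p = 0.0905) and Kdr 0.14 ± 0.11 (limma adjusted p = 0.336). RNAs common to diet and strain arrays are possible and are not modelled in these p-values. Fitted to the 3 per-replicate values alone, the adjusted p was 0.273 for Vegfa, 0.280 for Pdgfa and 0.557 for Kdr. In these 3 genes every replicate was above 0, as for 18.9% of probes with 3 values (18.7% had every replicate below 0). Of the probes tested 0.258% were called higher and 0.172% lower. Igfbp5 had 0.06 ± 0.47 (limma adjusted p = 0.881), with 1 of 3 replicates above 0.

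The separate estimates had the same sign for Vegfa, Pdgfa and Kdr. Vegfa had 0.24 from the diet arrays, with 0.005, 0.465 and 0.245 by replicate, and 0.355 from the strain arrays, with 0.49, 0.40 and 0.175. Pdgfa had 0.34 from the diet arrays, with 0.235, 0.385 and 0.39, and 0.19 from the strain arrays, with 0.19, 0.085 and 0.30. Kdr had 0.06 from the diet arrays, with 0.095, 0.085 and 0.005, and 0.21 from the strain arrays, with 0.435, 0.015 and 0.185. Each replicate of these 3 genes lay above 0 by either route, as for 7.95% of the 1006 probes with all 6 values. No estimate passed alone (limma adjusted p between 0.308 and 0.893). Igfbp5 had -0.08 and 0.20, opposite in sign.

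**Figure D3:**
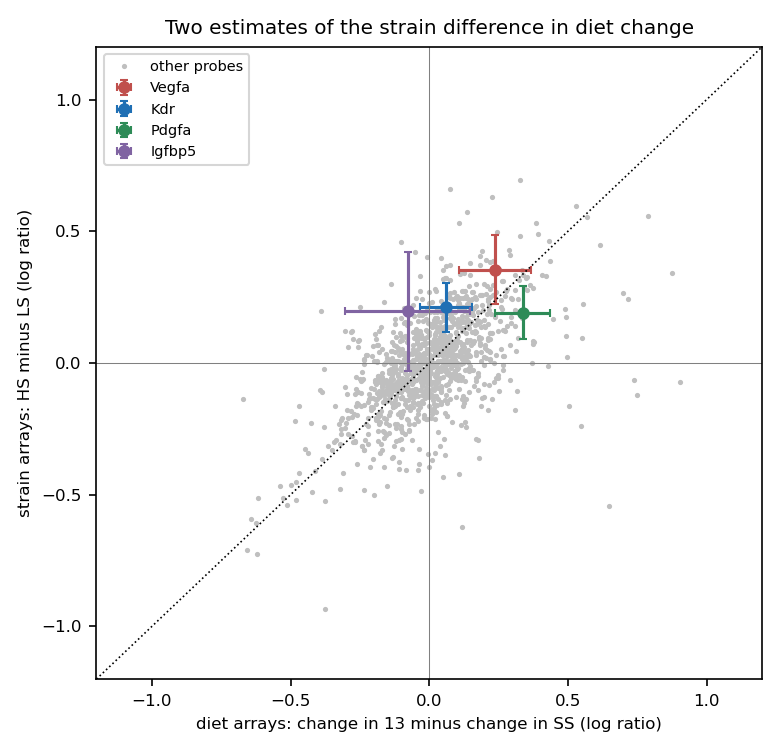
Change with diet in strain 13 minus that in SS, estimated from the diet arrays (horizontal axis) and as HS minus LS from the strain arrays (vertical axis), both as log ratios. Grey points are other probes, coloured points the 4 genes with bars of 1 SE of the fit, and the dotted line marks equal values; Vegfa (0.24 and 0.355), Pdgfa (0.34 and 0.19) and Kdr (0.06 and 0.21) lie above 0 on both axes.

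The strain arrays' titles differ in their text, which may mark a batch, and replicate 3 is where HS and LS share it. Within that replicate the HS minus LS values were 0.175 for Vegfa, 0.185 for Kdr, 0.3 for Pdgfa and -0.26 for Igfbp5. The signs of Vegfa, Kdr and Pdgfa there were those of their means, and that of Igfbp5 was not. A single replicate per diet allows no test.

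The 4 called values differed in how they held under other treatments of the arrays. With a comparison fitted alone, without the spread of the other comparisons, none passed (limma adjusted p = 0.238 for Vegfa, 0.119 for Kdr, 0.102 for Pdgfa and 0.135 for Igfbp5). Each kept its sign when any 1 replicate of every comparison was left out, but leaving out replicate 2 or 3 of every comparison ended all 4 calls and leaving out replicate 1 ended all but that of Vegfa. On forward arrays alone Kdr was 0.12 and Pdgfa 0.23, with the direction kept and the calls lost (limma adjusted p = 0.418 and 0.115). Vegfa turned to 0.14 on dye-swap arrays and Igfbp5 to -0.02 on forward arrays. Scaling the arrays to equal spread also ended the calls of Kdr (0.26), Pdgfa (0.28) and Igfbp5 (0.45), with limma adjusted p = 0.0522, 0.0548 and 0.139. In the fit to 24 arrays with a dye term, which counts the arrays of a pair separately, all 4 passed.

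**Figure D4:**
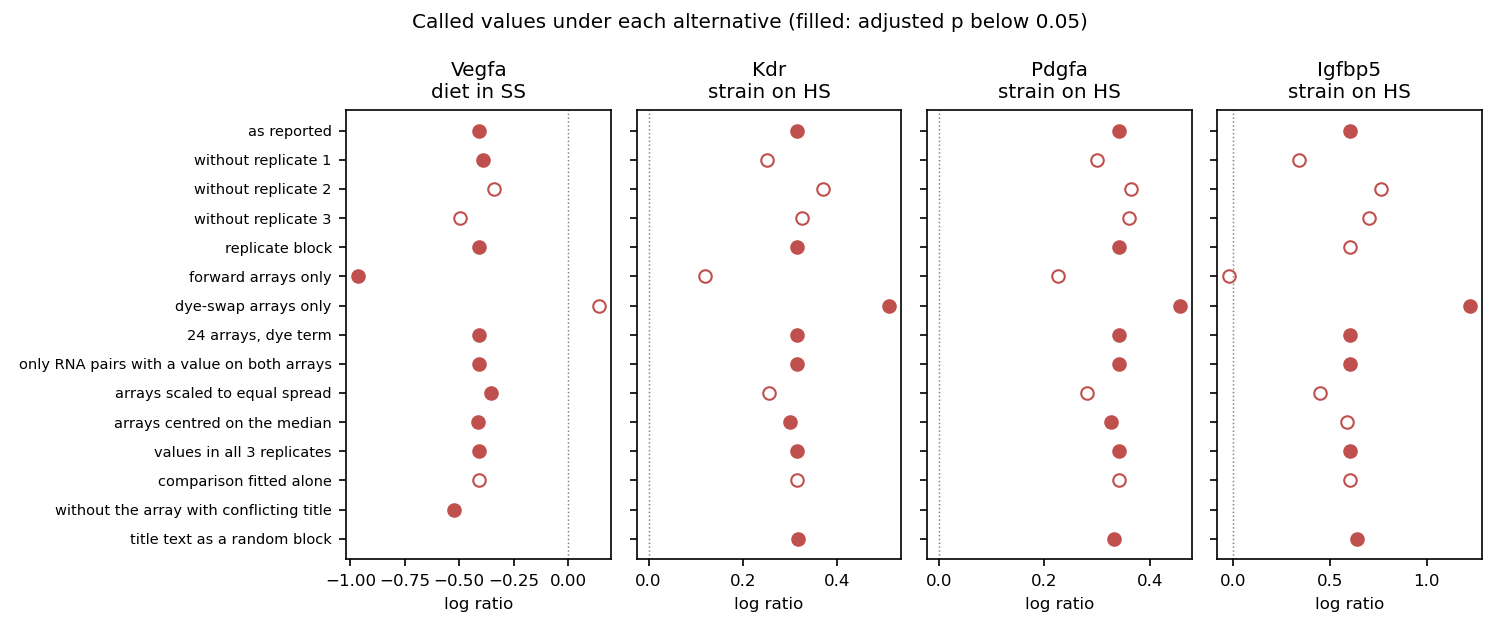
Log ratio (horizontal axis) of the 4 called values as reported and under each alternative (rows); filled circles have a limma adjusted p below 0.05 and open circles do not. The circles of Kdr and Pdgfa stay right of 0 in all rows, while Vegfa with dye-swap arrays only (0.14) and Igfbp5 with forward arrays only (-0.02) lie on the other side of 0.

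Few relatives of the 4 genes had values. Of 12 listed genes of the VEGF and angiopoietin family, only Nrp1 was measured, a co-receptor for VEGF. It had 0.27 ± 0.39 for diet in strain 13, 0.03 ± 0.51 in SS, -0.30 ± 0.25 for strain on HS and -0.33 ± 0.48 on LS (SD, n = 3 each), and 0 of 4 passed. Of 5 PDGF family genes only Pdgfra had values, the receptor that binds the A chain. Its ratios were 0.19 ± 0.07, 0.165 ± 0.20, -0.05 ± 0.31 and -0.13 ± 0.15 in the same order, with 0 of 4 passing. Both receptors averaged below 0 between strains on HS and on LS, Pdgfra by less than its SD on each diet.

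Of 12 IGF axis genes, 6 had values. On HS between strains, 1 of 6 tested passed, Igf1, the growth factor that Igfbp5 binds, at 0.38 ± 0.21 (SD, n = 3; limma adjusted p = 0.0365). The IGF axis median there was 0.04, against 0.02 over all probes, of which 6% were called. In the SS diet comparison Igf1 had -0.30 ± 0.10 (SD, n = 3; limma adjusted p = 0.0992), and 0 of 5 tested IGF axis genes passed, with a median of -0.13 against -0.01. The medians for diet in strain 13 and strain on LS were -0.015 and -0.05, against 0.01 and 0.025, with 0 of 5 passing in each. The other binding proteins lay on both sides of 0 on HS between strains, and none passed: Igfbp3 had -0.02, Igfbp2 -0.155 and Igfbp6 0.19, the last with values in 2 replicates and added after its value was seen.

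Of 31 other growth factors and receptors, 9 had values and 6 were tested on HS between strains. All 6 lay above 0, as did 54.7% of all probes tested, but 4 of them had values in only 2 replicates, with an SD of 0.25 to 0.58. Their median was 0.135 against 0.02 over all probes, of which 6% were called, and 1 of the 6 passed. This was Egf, a ligand made by the distal nephron that is also among the thick ascending limb markers, at 0.29 ± 0.10 (SD, n = 3; limma adjusted p = 0.0434). Egf also had -0.31 ± 0.16 for diet in SS (SD, n = 3; limma adjusted p = 0.0502). These values ran in the direction of those of Vegfa in SS and of Pdgfa and Kdr on HS between strains.

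Of 32 signalling genes below these receptors, 10 had values. Prkcb, a protein kinase C isoform activated by diacylglycerol, rose on HS in SS at 0.61 ± 0.05 (SD, n = 3; limma adjusted p = 0.0105), where 1 of 10 passed. On HS, Prkcb fell in strain 13 relative to SS, at -0.42 ± 0.16 (SD, n = 3; limma adjusted p = 0.0383), where 1 of 9 passed. These signs were opposite to those of Vegfa in SS and of Kdr and Pdgfa on HS. The signalling list's medians were 0.03 and 0.08, against -0.01 and 0.02 over all probes. Of all probes tested, 2.82% were called for diet in SS and 6% for strain on HS, in either direction.

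Of 20 hypoxia genes, 7 had values, and 0 passed limma's test in any comparison or in the difference. Their medians were 0.045 for diet in strain 13, 0.03 for diet in SS, 0.06 for strain on HS and 0.16 for strain on LS, against 0.01, -0.01, 0.02 and 0.025 over all probes. For strain on LS all 6 hypoxia genes tested lay above 0, as did 55.2% of all probes tested. Vegfa, itself a target of hypoxia-inducible factors, was below 0 there and did not pass (limma adjusted p = 0.116). A link between these values was not tested.

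Markers of the cell types that carry or receive these signals were thin on the array. Of 18 endothelial markers only Vcam1 had values, at 0.24 for diet in strain 13, 0.11 for diet in SS, -0.03 for strain on HS and 0.105 on LS, with 0 of 4 passing. The Kdr ratio could therefore not be set against the amount of endothelium. Of 8 collecting duct markers 3 had values, and on HS between strains all 3 were called higher: Fxyd4 at 0.495, Scnn1a at 0.38 and Aqp3 at 0.35. Over all probes, 3.63% were called higher and 2.37% lower there, and 1.83% higher on HS in SS. The mean over the 3 collecting duct markers was 0.46, 0.38 and 0.38 by replicate on HS and 0.27, 0.23 and 0.25 on LS. It was above 0 in every replicate, as were 28.3% of single probes on HS and 26.5% on LS. Fibroblast markers ran the other way, with 3 of 5 tested higher on HS in SS and 1 of 5 lower in strain 13 on HS, and medians of 0.37 and -0.34. Of the proximal tubule markers 2 of 8 tested were lower in strain 13 on HS, with a median of -0.43. Of the smooth muscle markers 1 of 3 tested was higher on HS in SS, Tagln at 0.70, and of the leukocyte markers 1 of 2 was lower in strain 13 on HS. Of 7 thick ascending limb and distal tubule markers 3 had values. Their medians were -0.25 for diet in SS, 0.18 for strain on HS and 0.01 on LS, and on HS 1 passed, Egf. Of 4 glomerular markers 1 had values, at 0.02 for diet in SS and 0.075 for strain on HS, and it was not called. The part of these marker shifts in the Vegfa, Kdr, Pdgfa and Igfbp5 ratios was not tested.

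Among themselves, the 4 genes were most alike as Kdr with Igfbp5 (r = 0.79 over 12 RNA pairs) and Vegfa with Pdgfa (r = 0.73). Kdr with Pdgfa had r = 0.69 and Vegfa with Kdr 0.68, while Igfbp5 with Vegfa and with Pdgfa had 0.46 and 0.44. These describe pairs from 4 comparisons that may share RNAs and carry no test. Among 861 probes with values in all pairs, those with the highest Pearson correlation to Vegfa were Cpt1b (0.87), Hba-a1 (0.87), Tor1aip1 (0.86), Rab28 (0.85) and Aldh1a1 (0.82). For Pdgfa they were Alcam (0.92), Ces2c (0.86), Cds1 (0.86), Pcsk6 (0.85) and Aldh1a1 (0.84). For Kdr they were Got1 (0.89), Mcrip1 (0.88), Capn1 (0.87), Ptp4a2 (0.87) and Gjb5 (0.86), and for Igfbp5 Thra (0.92), Aplp2 (0.88), Hk1 (0.87), Dnm1 (0.86) and Mcrip1 (0.86). Aldh1a1 stood on the lists of both ligands and Mcrip1 on those of Kdr and Igfbp5.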

How the data were processed

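The authors deposited 1 log ratio per probe and array, while how background, spot filter and normalization were handled, and the log base, are not stated in the labels or file header. Array means lay within 0.0049 of 0 and medians within 0.04, and arrays were used as deposited, with no intensity used here. Probes were named by the platform annotation, updated by gene identifier through RefSeq (GRCr8), and 1316 of 1561 had 1 symbol.

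Forward and dye-swap arrays were averaged into 12 RNA pairs. limma 3.58.1 in R 4.3.3 fitted 4 group means, each tested against 0 (two-sided) with Benjamini-Hochberg adjustment over all probes at 0.05, where at least 2 of 3 pairs had a value. The dye effect needed at least 6 pairs. The difference of the diet change averages diet-array and strain-array estimates, which may share RNAs and were fitted as independent. The signs of diet arrays relative to strain arrays were checked by whether both estimates match. Turning all signs together leaves this match unchanged, so it cannot show which way all of them run. Over 548 probes on all arrays both estimates correlated at 0.77 with the orientations added and 0.22 with them subtracted (across genes, which are not independent replicates).

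Genes named are the 4 members, list genes that passed or are the only measured relatives, and the 5 probes most correlated with each member. The members and lists were chosen with earlier results of these data known. Alternatives left out replicates, used 1 orientation or 24 arrays, scaled or centred arrays, changed the filter, fitted comparisons alone, left out arrays with doubtful titles or few values, and took replicate number or title text as a block. Titles name numbered RNAs on the strain arrays and, among the SS diet arrays, on 1 of replicate 3, where the names are those of the strain arrays' SS RNAs. Same-numbered deviations from the group means correlated across probes at -0.62, -0.48 and -0.26 between diet in SS and strain on HS, the sign of an SS RNA on HS shared by both. In the other combinations that could share an RNA, the sign was not the same in all replicates. The diet comparisons, which as placed here have no RNA in common, had 0.18, 0.13 and 0.19. Over all combinations the values ran between -0.62 and 0.39, with 5 of 18 above 0.1. Some RNAs, such as those of SS on HS, may therefore be shared by number. The fit treats the pairs as independent, and a replicate block, which adds the same shift to every comparison, does not model a shared RNA of opposite sign.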

Additional observations from a re-analysis of the deposited data

Results flagged for a closer look

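Pdgfa was above 0 in all 3 replicates for diet in strain 13 (0.24) and below 0 in all 3 for diet in SS (-0.10), so every replicate of one strain lay opposite to every replicate of the other. Taken singly, 15.7% of probes with 3 values lay above 0 in all 3 in strain 13, and 19.5% below 0 in all 3 in SS. The share with both was not counted. The difference for Pdgfa, combined with the strain arrays, was 0.26 and did not pass (limma adjusted p = 0.0905).

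Vegfa was above 0 in all 3 replicates for strain 13 over SS on HS (0.057) and below 0 in all 3 on LS (-0.30). Taken singly, 28.3% of probes did the former and 17.6% the latter, and the share that did both was not counted. The difference for Vegfa was 0.30 and did not pass (limma adjusted p = 0.147). In 16 sets of arrays of 1 gene and comparison, both orientations together, 0 held an array whose gap to its nearest neighbour passed Dixon's criterion. The dye effect of Vegfa and Igfbp5 sets their orientations apart and widens the range by which the gap is divided. For these genes the criterion could therefore hardly flag an array. The 3 pair means of a comparison are too few for Dixon's criterion, so replicate 1 of Igfbp5 on HS was not examined this way.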

How the results depend on the processing

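Of 300 alternative values of the 4 genes, 258 kept direction and side of the threshold, 22 lost their call, 8 gained one and 12 turned; 27 counts of called probes stayed close to their value and 48 moved. The 300 include values that were not called to begin with. Of 13 alternatives each, Vegfa for diet in SS kept direction and call in 9. On HS between strains, Kdr kept them in 7, Pdgfa in 7 and Igfbp5 in 5. The cause of these changes was not tested. Leaving out each replicate number in turn gave 0 to 1 probes for diet in strain 13 (0 with all), 0 to 134 for diet in SS (37), 0 to 27 for strain on HS (81), 0 to 1 for strain on LS (0), 0 to 10 for the difference (5) and 300 to 375 for the dye effect (479). Without replicate 2 or 3 the SS diet and HS strain counts were 0. Called values were then -0.4975 to -0.34 for Vegfa in SS, and on HS 0.25 to 0.37 for Kdr, 0.30 to 0.365 for Pdgfa and 0.3425 to 0.7625 for Igfbp5. Igfbp5 then ranged between -0.16 and -0.0975 for diet in strain 13, -0.175 and 0.15 for diet in SS and -0.2075 and 0.21375 for the difference, the sign turning without replicate 1 in the SS diet comparison and the difference.

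Counts for diet in strain 13, diet in SS, strain on HS, strain on LS and the difference were 15, 118, 127, 70 and 13 on forward arrays, 3, 62, 411, 51 and 12 on dye-swap arrays, and 14, 119, 191, 64 and 58 on 24 arrays with a dye term. Fitted alone, diet in SS, strain on HS and the difference had 0. Scaling arrays to equal spread gave 13 for strain on HS, 23 for strain on LS and 0 for the difference. Title text as a block gave 280 on HS and 69 on LS; this fit and that of 24 arrays count the arrays of a pair separately. Without the array with the conflicting title, diet in SS had 60 and the difference 12. Without the unnumbered array, or without the array with the fewest values, the difference had 2. Pairs with both arrays gave 61 for diet in SS, 3 for strain on LS and 29 for the difference, values in all 3 replicates 17, and diet or strain arrays alone 0 each.

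With replicate number as a block, strain on HS had 40 calls (39 of them shared with the 81) and the difference 8 (4 shared), and Igfbp5 on HS stayed at 0.60 with a limma adjusted p of 0.0925; no other call of the 4 genes changed.

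On forward arrays, strain on HS gave 0.12 for Kdr and 0.23 for Pdgfa (limma adjusted p = 0.418 and 0.115), -0.02 for Igfbp5 and -0.31 for Vegfa, and the Igfbp5 difference was -0.0775. On dye-swap arrays, Vegfa was 0.395 for diet in strain 13 and 0.14 in SS, and Igfbp5 was 0.25 for diet in strain 13 and 0.12 in SS. Scaled to equal spread, strain on HS gave 0.26 for Kdr, 0.28 for Pdgfa and 0.45 for Igfbp5, none called, and the Igfbp5 difference was -0.024. Centred on the median, Igfbp5 on HS was 0.59 (limma adjusted p = 0.0520). Fitted alone, Vegfa in SS at -0.41 and Kdr, Pdgfa and Igfbp5 on HS at 0.315, 0.34 and 0.60 were not called. Without the unnumbered array Igfbp5 for diet in strain 13 was 0.018, and its difference from diet arrays alone was -0.077. Gained calls were Pdgfa for diet in strain 13 (0.24), and the differences of Vegfa (0.36) and Pdgfa (0.26), on 24 arrays, Vegfa on HS (0.42) and Igfbp5 on LS (0.78) on dye-swap arrays, Vegfa on LS on forward arrays (-0.57) and with title text (-0.30), and the Vegfa difference in pairs with both arrays (0.36).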
